A study of Mus musculus with 12 samples.

Results

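The fragments of tRNA-Ala, the tRNA that brings alanine to the ribosome, were followed in 6 small RNA libraries of mouse sperm and 6 of the mouse cell line TM4. They comprised every read assigned to mature-tRNA-Ala-AGC, mature-tRNA-Ala-CGC and mature-tRNA-Ala-TGC, which are 3 of the 51 cytosolic isoacceptors (tRNAs of an amino acid that differ in their anticodon) in the deposited tables, chosen by name and not by any value. Each isoacceptor was split into tRF5 (reads that begin at the 5′ end of the mature tRNA), tRF3 (the reads that the tables list as 3′ end and as CCA end) and other (the isoacceptor's remaining reads), which gave 9 of 152 tRNA-derived fragment classes (tRFs). All 9 had at least 10 reads in enough libraries to be tested in every comparison. Levels are given as RPM, the reads of a tRF per 1000000 clean reads left after removal of rRNA reads.

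Sperm was taken from the epididymis of C57BL6/J males fed a control diet (CD, 16% of kcal from fat, 3 libraries) or a high-fat diet (HFD, 3 libraries) for 7 weeks from the age of 4 weeks, and 3 sperm samples were pooled in each library. These are the values of the labels. For the HFD they give 69% of kcal from fat, while the methods of the study state a lower share, and a legend of the study gives a later age at the start. TM4, a line derived from mouse Sertoli cells, was left untreated (Ctrl, 2 libraries), exposed for 12 h to 10 µM Compound C (CC, an inhibitor of the energy sensor AMPK; 2 libraries) or made to overexpress Ang from a plasmid (Ang OE, 2 libraries). No library of cells with an empty plasmid was analysed here, and the comparisons of CC and of Ang OE with Ctrl share the same 2 Ctrl libraries. Nothing in the labels states that the libraries of a TM4 group came from separate cultures, so p-values measure the spread between these libraries, which may be technical.

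The libraries held 31710445 to 64038150 clean reads, and after removal of rRNA reads 23030602 to 28018533 were left in sperm and 47610967 to 59623558 in TM4. Reads of rRNA made up 16.5 to 25.2% of clean reads in CD and 24.7 to 32.9% in HFD, and their part in the diet comparison was not tested. Sperm was pelleted without a stated step to lyse somatic cells. The summed level of 5 epithelial microRNAs was 4480 to 7580 RPM in sperm against 0.719 to 1.55 RPM in TM4. That of 2 red blood cell microRNAs was 649 to 1018 RPM in CD and 1107 to 1300 RPM in HFD, without overlap between the diets, and its part in the diet comparison was not tested. The 6 testis germ cell microRNAs summed to 1515 to 4024 RPM in CD and 1670 to 2054 RPM in HFD, with mir-871 at 2069 RPM in CD replicate 2 against 481 and 787 RPM in the other CD libraries. mir-202, the defining Sertoli microRNA, was at 0 to 0.11 RPM in TM4 and at 2.57 to 28.8 RPM in sperm, so this marker of the labelled cell type was nearly absent from the line. The 2 smooth muscle microRNAs mir-143 and mir-145a summed to 29770 to 31248 RPM in Ctrl, 30287 to 42667 RPM in CC and 61711 to 79792 RPM in Ang OE. This shift was that of mir-143, since mir-145a was at 682 to 916 RPM in the 6 TM4 libraries. The germ cell list summed to 591 to 609 RPM in Ctrl, 550 to 595 RPM in CC and 1195 to 1334 RPM in Ang OE, most of it mir-34c, while its members mir-741, mir-871 and mir-880 were at 0 to 0.367 RPM in TM4, and the part of these shifts in the TM4 results was not tested.

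A mature tRNA ends in the letters CCA, which an enzyme adds after transcription and to which the amino acid is attached. Ang encodes angiogenin, an RNase that under stress cleaves tRNAs in the anticodon loop and so leaves a 5′ and a 3′ fragment. The 5′ fragments of tRNA-Ala and tRNA-Cys are known for a run of G at their 5′ end that lets them fold into G-quadruplexes and hold back translation. The library kit ligates adapters to RNA with a 5′ phosphate and a 3′ hydroxyl, while angiogenin leaves other ends on its products, so the levels below cover only the fragments that this chemistry could capture.

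A scan of the GRCm39 genome for the tRNA-Ala fold found 31 genes, against 33 in the RefSeq annotation of GRCm38.p6: 12 with the anticodon AGC, 8 with CGC and 11 with TGC. Of these, 12 lay on chromosome 13 and 12 on the X chromosome, 18 were intergenic, 10 were in introns and 3 in exons of annotated genes. The deposited tables were made on another build (mm10), so these coordinates were not joined to them. The 31 genes held 20 distinct sequences, and 6 that stand for more than 1 gene are shown to compare the ends from which the fragments come. They are written 5′ to 3′ as DNA, without the added CCA, and the capitals mark the anticodon. The AGC sequences lie at chr13:23469819-23469891 (plus strand, in an intron of the lncRNA 4930557F10Rik) and chr13:21406756-21406827 (plus strand, in an intron of the lncRNA Gm32525). The CGC sequences are intergenic, at chrX:135280115-135280186 (minus strand) and chr13:21438390-21438461 (plus strand). The TGC sequences lie at chrX:135281496-135281567 (plus strand, intergenic) and chr5:125481314-125481385 (minus strand, in an intron of Gm72714).
tRNA-Ala-AGC, 3 genes: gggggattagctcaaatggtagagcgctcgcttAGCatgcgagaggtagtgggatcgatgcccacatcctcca
tRNA-Ala-AGC, 2 genes: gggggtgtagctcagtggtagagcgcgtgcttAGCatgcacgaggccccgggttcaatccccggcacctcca
tRNA-Ala-CGC, 3 genes: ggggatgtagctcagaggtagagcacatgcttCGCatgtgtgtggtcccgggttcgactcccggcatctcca
tRNA-Ala-CGC, 2 genes: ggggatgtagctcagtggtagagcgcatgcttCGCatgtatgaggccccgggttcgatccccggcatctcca
tRNA-Ala-TGC, 3 genes: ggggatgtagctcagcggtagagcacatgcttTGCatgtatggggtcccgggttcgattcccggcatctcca
tRNA-Ala-TGC, 2 genes: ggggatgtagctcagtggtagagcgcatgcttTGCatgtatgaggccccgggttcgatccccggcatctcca

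The sequences show how much the isoacceptors overlap. Every one of the 31 genes begins with a run of G, which is 5 bases long in 9 of the 12 AGC genes and 4 bases long in all 8 CGC genes and in 10 of the 11 TGC genes. Some genes of each pair of anticodons share their first 32 bases, so a 5′ fragment that stops before the anticodon can match more than 1 isoacceptor. At the 3′ end, the last 18 bases of no AGC gene occurred in a gene of another anticodon, whereas those of 4 of the 8 CGC genes and 9 of the 11 TGC genes did. Reads that matched several rows had been divided among them, so the levels of the isoacceptors are not independent of each other. All 31 genes also end in the letters cca before any tail is added.

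This last feature bears on the reads counted as CCA ends. Over the 12 libraries, 93.1% of the CCA-end reads of tRNA-Ala-CGC, 66.9% of those of tRNA-Ala-TGC and 21.5% of those of tRNA-Ala-AGC matched the genome. Over the 48 isoacceptors of other tRNAs this share ranged from 0 to 100% with a median of 20.9%, and it was above that of tRNA-Ala-TGC in 18 and above that of tRNA-Ala-CGC in 14 of them, so a high share was not particular to tRNA-Ala. The tables hold no read sequences and do not tell a read that stops at the encoded letters from one that carries the added tail, so the split between them was not tested.

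In sperm, tRNA-Ala was a small part of the tRNA reads, and it was read as tRF5, as CCA ends and from other positions alike. The family summed to 1101, 1488 and 914 RPM in CD and to 1417, 1563 and 1398 RPM in HFD, and it was between 0.551 and 1.38% of all mature tRNA reads. It ranked 11 among 23 tRNA families by name, with initiator Met, selenocysteine and suppressor tRNAs counted apart, in each of the 6 sperm libraries. tRF5 made up 45.8, 53.8 and 46.3% of the family's reads in CD and 34.5, 64.9 and 53.6% in HFD. CCA-end reads made up 15.6 to 37.4% of the family in sperm, whereas they were 0.647 to 1.67% of the reads of all other tRNAs. The pooled reads of other tRNAs were 63.8 to 79.96% tRF5. In each sperm library the tRF5 share of tRNA-Ala was below that of this pool and its CCA-end share above it. The pool was weighted towards abundant fragments, such as tRF5 of tRNA-Gly-GCC (44077 to 85788 RPM in CD and 46827 to 59667 RPM in HFD). Shares of single families were not compared. In these bulk samples fewer cells of a type and less RNA per cell cannot be told apart.

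In TM4 the same tRNA was almost wholly read from its 3′ end. The family summed to 1517 and 2129 RPM in Ctrl, 2588 and 3492 RPM in CC, and 698 and 1139 RPM in Ang OE. CCA-end reads were 91.9 to 94.7% of the family in the 6 TM4 libraries, and tRF5 were 0.303 to 1.37%. The pooled reads of other tRNAs in TM4 were 7.13 to 40.0% CCA-end reads and 8.18 to 64.4% tRF5. tRNA-Ala was 5.503 and 9.398% of the mature tRNA reads in Ctrl, 9.51 and 13.1% in CC, and 1.90 and 2.30% in Ang OE. The Ang OE libraries did not overlap with the others in this share. By RPM, 77.6% (against Ctrl) and 79.7% (against CC) of all tRFs tested had no overlap with Ang OE. The mature tRNA reads that form the denominator were 1821996 and 2702832 in Ang OE, against 1272431 to 1406850 in Ctrl and CC.

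tRNA-Ala had a larger share of the CCA-end reads than of the tRF5 in both sources. It supplied 14.9 to 26.2% of all CCA-end reads of mature tRNAs in each of the 12 libraries, against 0.0336 to 1.07% of all tRF5. By mean level of CCA-end reads, TGC, AGC and CGC ranked 2, 3 and 5 of 51 isoacceptors in sperm and 2, 3 and 4 in TM4. Reads in the 3′-end row of the tables were few, at 4.80 to 8.55 RPM in sperm and 0.464 to 2.84 RPM in TM4.

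**Figure D1:**
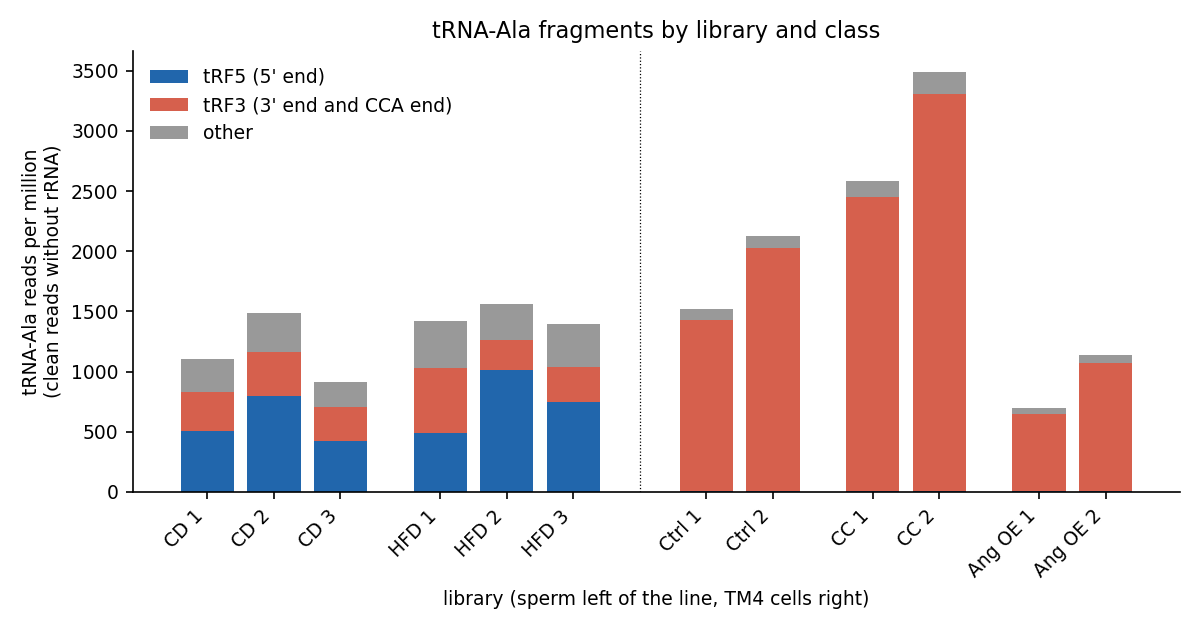
Level of the tRNA-Ala family (RPM, all 3 isoacceptors added) in each of the 12 libraries, with each bar divided into tRF5, tRF3 (3′ end and CCA end) and other reads. The 6 sperm bars are divided between the 3 classes, while tRF3 reads fill 91.995 to 94.8% of each TM4 bar.

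Among the 5′ fragments, TGC was the most abundant isoacceptor and AGC the least in sperm. tRF5 of tRNA-Ala-TGC stood at 280, 445 and 240 RPM in CD, and at 276, 553 and 410 RPM in HFD. For tRNA-Ala-CGC the values were 130, 202 and 107 RPM in CD and 124, 262 and 193 RPM in HFD. tRNA-Ala-AGC gave 94.5, 154 and 76.9 RPM in CD and 88.8, 199 and 147 RPM in HFD. The order TGC, CGC, AGC held in each of the 6 sperm libraries, and the 3 isoacceptors rose and fell together from library to library, so their spread was shared. AGC was 18.1 to 19.6% of the family's tRF5 in these libraries. Within the isoacceptors, tRF5 made up a mean of 30.04% of AGC reads, 47.8% of CGC reads and 62.0% of TGC reads in CD.

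In TM4 the 5′ fragments were few, at 8.05 to 10.6 RPM for the whole family. Each isoacceptor had 103 to 261 tRF5 reads in a TM4 library. tRF5 of tRNA-Ala-AGC stood at 2.14 and 1.75 RPM in Ctrl, 3.11 and 3.59 RPM in CC, and 3.43 and 3.57 RPM in Ang OE. Both libraries of CC and both of Ang OE thus lay above both Ctrl libraries, where 64.3% (CC) and 77.6% (Ang OE) of all tRFs tested had no overlap with Ctrl in either direction. tRF5 of tRNA-Ala-TGC stood at 5.21 and 4.12 RPM in Ctrl, 4.70 and 4.52 RPM in CC, and 4.06 and 4.46 RPM in Ang OE, and that of tRNA-Ala-CGC ranged from 2.07 to 2.74 RPM over the 6 libraries. AGC supplied 21.2 and 21.7% of the family's tRF5 in Ctrl, 30.3 and 33.9% in CC, and 35.9 and 34.1% in Ang OE, and the difference between the isoacceptors in this response was not tested.

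**Figure D2:**
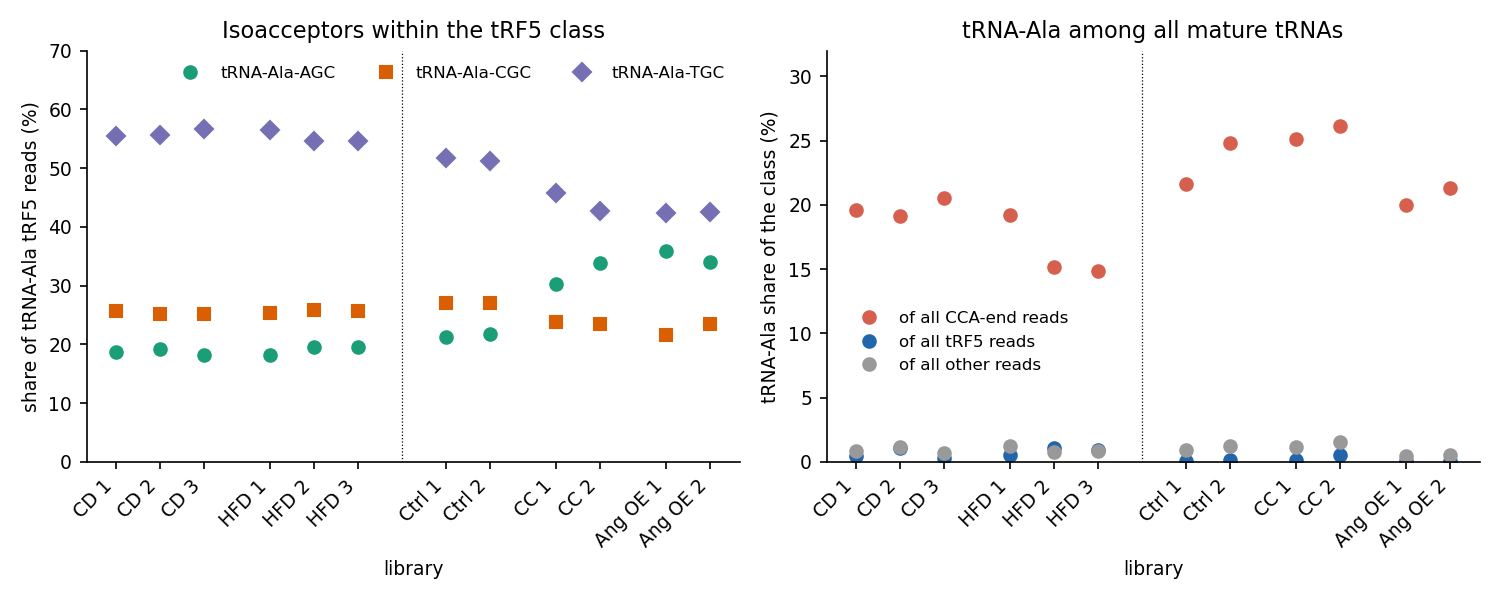
Left, share of each isoacceptor in the tRNA-Ala tRF5 reads (percent) in each of the 12 libraries, sperm left of the dotted line and TM4 right of it. Right, share of tRNA-Ala in all CCA-end, all tRF5 and all other reads of mature tRNAs (percent), where CCA-end reads lie at 14.9 to 26.2% and both other classes at or below 1.54%.

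Among the 3′ fragments, the isoacceptors were nearer to each other in level. tRF3 of tRNA-Ala-TGC, the tRNA-Ala tRF with the highest mean over the 12 libraries, stood at 575 and 828 RPM in Ctrl, 1003 and 1330 RPM in CC, and 293 and 467 RPM in Ang OE. tRF3 of tRNA-Ala-AGC stood at 454 and 586 RPM in Ctrl, 723 and 1012 RPM in CC, and 168 and 268 RPM in Ang OE. tRF3 of tRNA-Ala-CGC stood at 388 and 605 RPM in Ctrl, 719 and 952 RPM in CC, and 181 and 325 RPM in Ang OE. For each isoacceptor the libraries fell in the order Ang OE, Ctrl, CC without overlap. Of all tRFs tested, 64.3 to 79.7% had no overlap, in either direction, between a given pair of these groups. In sperm, tRF3 lay between 67.1 and 205 RPM for each isoacceptor, and the highest value of each came from HFD replicate 1.

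**Figure D3:**
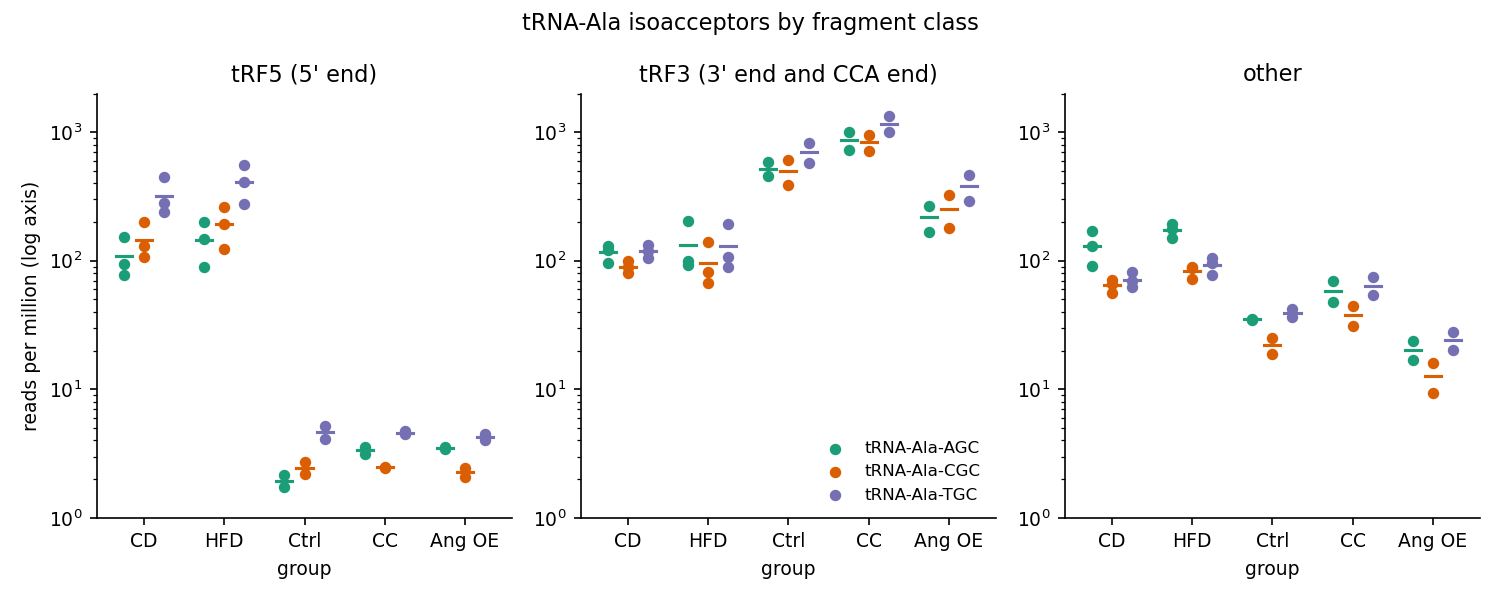
Level of tRF5, tRF3 and other reads (RPM, log axis) of tRNA-Ala-AGC, tRNA-Ala-CGC and tRNA-Ala-TGC, with 1 point per library and a line at each group's mean. tRF5 are high in the 6 sperm libraries and at 1.75 to 5.21 RPM per isoacceptor in TM4, and tRF3 are lowest in TM4 in the Ang OE libraries.

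The comparison of HFD with CD asked whether the diet of the male moved the tRFs of its sperm. No tRNA-Ala tRF was called at an unadjusted p under 0.05 with a change over 1.5-fold, against a background of 16.2% of the 142 tRFs tested (23 tRFs of other tRNAs, all higher in HFD), and none of the 9 reached an unadjusted p under 0.05. At an adjusted p under 0.05 in edgeR's quasi-likelihood test no tRF of any tRNA was called. By the unadjusted rule DESeq2 called 0 of the 9, against 31 of all 142 with the same library sizes and 7 with its own size factors. Without CD replicate 2, tRF5 of tRNA-Ala-AGC was called by the unadjusted rule, with a log2 fold change of 0.76, where 54 of the 142 tRFs were called against 23 with all libraries. All 9 tRNA-Ala tRFs had a positive log2 fold change, from 0.10 (tRF3 of CGC, SE 0.33) to 0.42 (tRF5 of AGC, SE 0.34), with a median of 0.37 beside a median of 0.44 over all tRFs tested. Under scaling by TMM (edgeR's trimmed mean of M-values), which moved the median of all tRFs by over 0.5, all 9 values were negative and the calls over all tRNAs were 1 higher and 7 lower.

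The intervals of the diet differences were wide. For tRF5 of tRNA-Ala-TGC the 95% interval of the log2 fold change ran from -0.32 to 1.05, and for tRF3 of tRNA-Ala-TGC from -0.54 to 0.78. Other reads of tRNA-Ala-CGC were the tRNA-Ala tRF without overlap between the diets, at 66.3, 71.1 and 55.8 RPM in CD and 89.3, 72.5 and 87.9 RPM in HFD, while 26.8% of all tRFs tested had no overlap. Its log2 fold change was 0.37 (SE 0.32). Isoacceptor totals gave log2 fold changes of 0.34 (AGC), 0.31 (CGC) and 0.31 (TGC), none called, against 42.0% of the 50 totals tested. Under TMM scaling 3 of the 50 totals were called, none of them of tRNA-Ala.

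The summed family was compared in an exact 2-sided permutation test, in which 3 against 3 libraries cannot go below p = 0.1, so no difference could pass 0.05. The level was 1168 ± 292 RPM in CD and 1459 ± 90.0 RPM in HFD (mean ± SD, n = 3 each), with an exact permutation p of 0.3. The difference of 292 RPM ranged from 165 to 452 RPM when libraries were left out in turn. The tRF5 share of the family's reads was 48.6 ± 4.51% in CD and 51.0 ± 15.3% in HFD (n = 3 each, exact permutation p = 1). The spread of the share within HFD was thus larger than the difference between the diets. HFD replicate 1 had the lowest tRF5 share of the sperm libraries (34.5%) and the highest tRF3, and HFD replicate 2 the highest tRF5 share (64.9%). Without HFD replicate 2 the difference in tRF5 share was -4.54 percentage points, against 2.38 with all libraries, and without HFD replicate 1 it was 10.6. These 6 measures of the family, mitochondrial tRNA-Ala included, had Benjamini-Hochberg adjusted p-values from 0.8 to 1.

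The comparison of CC with Ctrl asked whether inhibition of AMPK moves tRFs in TM4. No tRNA-Ala tRF was called at an adjusted p under 0.05 with a change over 2-fold, against 0.699% of the 143 tRFs tested (1 higher and 0 lower). An unadjusted p under 0.05 was reached by 4 of the 9 and by 39 of all 143. DESeq2 called 0 of the 9. Over all tRFs it called 5 higher and 5 lower with the same library sizes, and 2 higher and 5 lower with its own size factors. An adjusted p under 0.05 was reached by 3 of the 9 in DESeq2 with the same library sizes (33 of all 143) and by 7 after ComBat-seq with the replicate number as batch (50 of all 142), for tRNA-Ala in each case with a change under 2-fold. Under TMM scaling 0 of the 9 (19 of all 143) and under DESeq2 with its own size factors 1 (28 of all 143) had an unadjusted p under 0.05, and the median of the 9 log2 fold changes was 0.26 and 0.34 in place of 0.74. The 7 tRNA-Ala tRFs other than tRF5 of CGC and TGC were higher in both CC libraries than in both Ctrl libraries, and 64.3% of all tRFs tested had no overlap between these groups. Their log2 fold changes were close to each other, from 0.71 (other reads of TGC, SE 0.26) to 0.79 (tRF5 of AGC, SE 0.28, adjusted p = 0.147 in edgeR's quasi-likelihood test).

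By class, tRF3 and other reads of tRNA-Ala stood above the median of the other tRNAs. The 3 tRF3 had log2 fold changes of 0.73 to 0.75, beside a median of 0.58 for the 46 tRF3 of other tRNAs, all 46 of which were positive, and they ranked 12 (AGC), 11 (CGC) and 13 (TGC) of 49 from the highest. For other reads the 3 values were 0.71 to 0.78 beside a median of 0.29 for 47 other tRNAs, and they ranked 7 (AGC), 3 (CGC) and 8 (TGC) of 50 from the highest. The difference from the other tRNAs was not tested. tRF5 of tRNA-Ala-CGC and tRNA-Ala-TGC had log2 fold changes of 0.01 (95% interval -0.57 to 0.58) and -0.02 (-0.52 to 0.49), beside a median of -0.43 for 41 other tRF5, of which 1 was called higher and 0 lower. Isoacceptor totals had log2 fold changes of 0.74, 0.75 and 0.73, none called, against 1.96% of 51 totals.

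The comparison of Ang OE with Ctrl asked whether more angiogenin moves tRFs in TM4. Among the tRFs none of the 9 of tRNA-Ala was called, against 9.79% of the 143 tested (6 higher and 8 lower, and by DESeq2 with its own size factors 17 higher and 14 lower), while 5 of the 9, and 51 of all 143, had an unadjusted p under 0.05. The closest were tRF3 of tRNA-Ala-AGC, with a log2 fold change of -1.25 (SE 0.40, adjusted p = 0.0763 in edgeR's quasi-likelihood test), and tRF5 of tRNA-Ala-AGC, with 0.85 (SE 0.28, adjusted p = 0.0763). tRF3 of AGC passed the threshold by DESeq2, under TMM scaling and with the replicate block (adjusted p = 0.0482), as it did without CC replicate 1 or CC replicate 2, which changes the estimate of the spread alone. Calls over all tRFs rose from 14 to 31 by DESeq2, 24 under TMM, 18 with the block and 30 without either CC library. When the 3′-end and CCA-end rows were fitted as separate classes, 3′-end reads of tRNA-Ala-TGC fell by 1.53 on the log2 scale (SE 0.36, adjusted p = 0.0374), at a level of under 1 RPM in both Ang OE libraries, where 19 of 173 classes were called.

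Over all classes of reads, tRNA-Ala-AGC was lower in Ang OE than in Ctrl. Its total fell by 1.20 on the log2 scale (SE 0.38, edgeR adjusted p = 0.00603) and was called, against 15.7% of 51 totals called lower and 29.4% called in either direction. The total of CGC had a log2 fold change of -0.96 (SE 0.37, adjusted p = 0.0294 in the same edgeR fit), under the 2-fold limit, and that of TGC -0.87 (SE 0.40, adjusted p = 0.0675). Without overlap between the libraries were 7 of the 9 tRFs, 6 of them lower and tRF5 of AGC higher, and 77.6% of all tRFs tested had no overlap.

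Other reads of tRNA-Ala, those from neither end, lay near the low end of the same class of all tRNAs. Their log2 fold changes were -0.80 (AGC), -0.80 (CGC) and -0.70 (TGC), which ranked 48, 49 and 47 of 50 from the highest, beside a median of 0.20 for the other 47. For tRF5 the tRNA-Ala values were 0.85, -0.11 and -0.13 beside a median of 0.66 for the other 41, of which 4 were called higher. For tRF3 they were -1.25, -0.98 and -0.88 beside a median of -0.59 for the other 46, of which 8 were called lower. None of these differences from the other tRNAs was tested.

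Set directly against each other, Ang OE and CC gave calls for the 3′ and inner fragments of tRNA-Ala. The 3 tRF3 and the 3 other-read classes of tRNA-Ala were called lower in Ang OE than in CC, against 38.5% of the 143 tRFs called in either direction and 27.3% called lower. Over all tRNAs 16 tRFs were called higher and 39 lower, and under TMM scaling 22 higher and 20 lower. Under TMM and under DESeq2 with its own size factors 5 of the 6 tRNA-Ala calls were left, and other reads of TGC had a log2 fold change of -0.98 in both, under the 2-fold limit. tRF3 of AGC fell by 1.99 on the log2 scale (SE 0.41, adjusted p = 0.00964 in edgeR's quasi-likelihood test), and those of CGC and TGC had log2 fold changes of -1.73 (SE 0.44) and -1.62 (SE 0.43). The tRF3 of the other 46 tRNAs had a median of -1.11 and 26 of them were called lower, and those of tRNA-Ala ranked 42, 37 and 33 of 49 from the highest. Other reads had log2 fold changes of -1.53 (AGC, SE 0.27), -1.58 (CGC, SE 0.33) and -1.41 (TGC, SE 0.27), beside a median of -0.23 for the other 47 tRNAs, of which 4 were called lower. The calls of tRF3 of CGC and TGC depended on Ang OE replicate 1, without which calls over all tRNAs fell as well. When libraries were left out in turn, the log2 fold changes of tRF3 ranged from -2.37 to -1.69 (AGC), -2.21 to -1.36 (CGC) and -1.99 to -1.32 (TGC).

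The 5′ fragments of tRNA-Ala were not called in this comparison, while the most abundant tRF5 of sperm were. Of the 41 tRF5 of other tRNAs, 16 were called higher and 3 lower, with a median log2 fold change of 1.05. tRF5 of tRNA-Gly-GCC, tRNA-Glu-CTC and tRNA-Val-CAC were called higher in Ang OE than in CC, with log2 fold changes of 3.12, 1.68 and 3.79. tRF5 of tRNA-Ala had log2 fold changes of 0.06 (AGC), -0.12 (CGC) and -0.11 (TGC), and their 95% intervals lay within -0.70 and 0.61. The difference between these and the tRF5 of the other tRNAs was not tested. tRF5 of tRNA-Cys-GCA, the other 5′ fragment known for its run of G, was at 0 to 0.111 RPM in every library and was not tested. Isoacceptor totals were called lower for AGC, CGC and TGC, with log2 fold changes of -1.94, -1.71 and -1.60, against 29.4% of 51 totals called lower and 43.1% called in either direction. Of the 9 tRFs, 7 were lower without overlap, beside 79.7% of all tRFs without overlap in either direction.

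**Figure D4:**
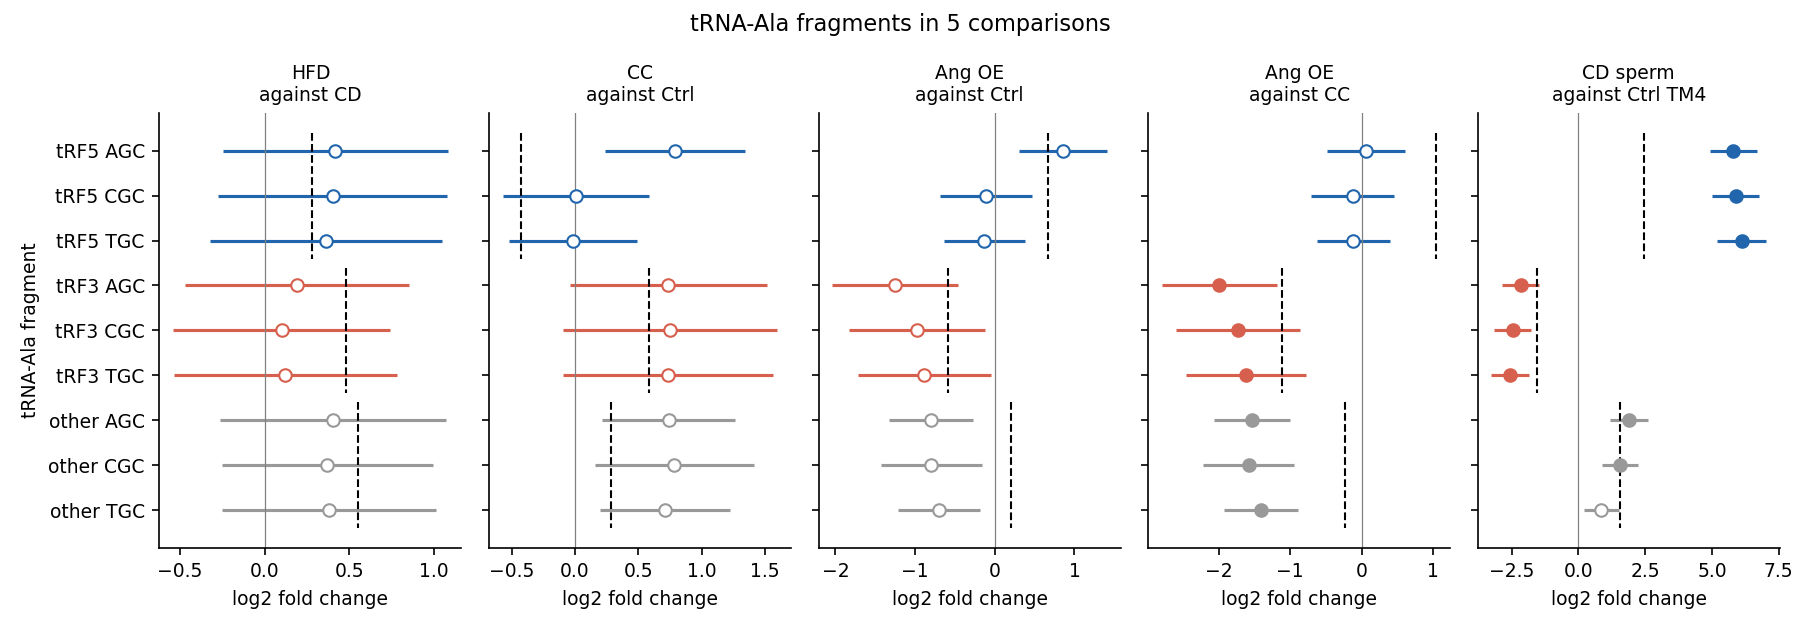
Log2 fold changes of the 9 tRNA-Ala tRFs in the 5 comparisons, each on its own axis, with bars for the 95% interval, filled points for tRFs that were called and a dashed line at the median of the other tRNAs of the class. In Ang OE against CC the 3 tRF3 and the 3 other-read classes are filled and lie below 0, in CD against Ctrl all but other reads of TGC are filled, and in the remaining 3 comparisons every point is open.

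The level in CD sperm was also set against that in Ctrl TM4, where source, library size and preparation cannot be told apart. tRF5 of tRNA-Ala were higher in sperm by log2 fold changes of 5.80 (AGC, SE 0.44), 5.89 (CGC, SE 0.45) and 6.11 (TGC, SE 0.47), beside a median of 2.44 for the other 41 tRF5. tRF3 were lower, with log2 fold changes of -2.16 (AGC), -2.47 (CGC) and -2.56 (TGC), beside a median of -1.55 for the other 46. Of the 9 tRFs 5 were called higher, against 51.0% of 143, and 3 were called lower, against 28.0%, where 79.0% were called in all (73 higher and 40 lower, against 44 higher and 53 lower under TMM scaling). Under TMM and under DESeq2 with its own size factors 6 of the 9 were called, since other reads of AGC (log2 fold changes of 0.64 and 0.93) and CGC (0.31 and 0.62) were then under the 2-fold limit. The exception was other reads of TGC, with a log2 fold change of 0.86 (SE 0.34), under the 2-fold limit. All 9 were without overlap, as were 91.6% of the tRFs tested.

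The 2 rows that make up tRF3 went opposite ways, although the tables do not show whether for tRNA-Ala they divide reads with an added tail from reads without it. Fitted apart, CCA-end reads were lower in sperm by log2 fold changes of -2.19 (AGC), -2.48 (CGC) and -2.58 (TGC), whereas 3′-end reads were higher by 2.01, 1.39 and 1.29, all 6 called. Over all 186 classes the median in this fit was 1.19, with 97 called higher and 48 lower. The isoacceptor totals had log2 fold changes of -0.65, -0.79 and -0.54, none called, against 64.0% of 50 totals, and all 3 were called lower under TMM scaling, where 34 of the 50 totals were called.

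The tRNA-Ala tRFs moved in step within a class, and tRF3 and other reads moved together as well. After each group's mean was removed, log2(RPM + 1) of the isoacceptors correlated over the 12 libraries with Pearson's r of 0.985 to 0.996 for tRF5, 0.958 to 0.991 for tRF3 and 0.809 to 0.945 for other reads. Between tRF3 and other reads r ranged from 0.661 to 0.872, between tRF5 and other reads from -0.0996 to 0.299, and between tRF5 and tRF3 from -0.44 to -0.36. Isoacceptors share reads and libraries share their depth, so these values are a description. The tRFs of other tRNAs most like tRF3 of tRNA-Ala-TGC by the same measure were tRF3 of tRNA-Asn-GTT (r = 0.957), tRNA-Ser-TGA (r = 0.939) and tRNA-Leu-AAG (r = 0.936). In Ang OE against CC these had log2 fold changes of -1.09, -1.73 and -2.17, all called, where 26 of the 46 tRF3 of other tRNAs were called lower.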

How the data were processed

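Small RNA libraries of sperm and TM4 were made with the TruSeq Small RNA kit. Per the study's methods and the submitters' processing notes, the authors trimmed reads (Trimmomatic 0.40, FastQC 0.12.0) and annotated them on mm10 with SPORTS1.1, which counts reads of 15 to 45 nt with up to 1 mismatch. The deposited values are estimated counts per RNA subclass, in which a read that matches several subclasses is divided among them. The authors also adjusted TM4 counts for technical batches with ComBat-seq. Which libraries formed a batch is not given in the sources used here, and the deposited counts were used as they are.

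Genome-matched and unmatched reads of each mature tRNA row were added, and the 3′-end and CCA-end rows were joined as tRF3. Counts were rounded and tested with edgeR 4.0.16 (quasi-likelihood F test, R 4.3.3), with clean reads minus rRNA reads as library size and no further scaling. tRFs with at least 10 reads in as many libraries as the smallest group holds (3 in sperm, 2 otherwise) were tested. In sperm a tRF was called at an unadjusted p under 0.05 and over 1.5-fold. In the other comparisons it was called at a Benjamini-Hochberg adjusted p under 0.05 and over 2-fold. The 3 TM4 groups shared a fit. Family shares and levels were compared between diets with exact 2-sided permutation tests. Data were simulated from the mean levels and sizes of these libraries, with a fixed spread for every tRF that was not estimated from them. In these data the fits of the 5 comparisons each recovered 100% of the 29 or 30 tRFs changed by 2 on the log2 scale. There were 0 to 2 false calls among the 141 or 142 tested. The recovery says nothing of tRFs that vary more than was simulated, or of changes as small as those between the diets. DESeq2 1.42.0, sva 3.50.0 and limma 3.58.1 served for alternatives and for the scaling and adjustment they provide.

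Named besides the members were, by rule, tRF5 of tRNA-Cys-GCA, tRNA-Gly-GCC, tRNA-Glu-CTC and tRNA-Val-CAC, and the 3 tRFs of other tRNAs that correlated best with the most abundant tRNA-Ala tRF. The microRNAs singled out of the marker lists were chosen after their values were seen. The members and lists were chosen with earlier results of these data known. tRNA genes were found in GRCm39 by a conserved motif of the T arm and by pairing in the T, anticodon, D and acceptor stems. The anticodon and some fixed bases, among them a G and a T of the acceptor stem, were also required. Matches were kept on chromosomes where RefSeq lists that anticodon. The mature sequences that the authors matched were not used here.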

Additional observations from a re-analysis of the deposited data

How the results depend on the processing

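Of the 9 tRNA-Ala tRFs, 0 were called in HFD against CD and in CC against Ctrl under each alternative that kept all libraries (TMM scaling, DESeq2 with the same or its own library sizes, all clean reads as library size, other filters, genome-matched reads, CCA ends apart, a replicate block and, in TM4, the 2 groups alone or ComBat-seq). Leaving out each library in turn gave 0 to 1 calls in HFD against CD (1 without CD replicate 2) and 0 to 0 in CC against Ctrl. In Ang OE against Ctrl the count was 1 rather than 0 under TMM, both DESeq2 fits, genome-matched reads, CCA ends apart, the replicate block, the 2 groups alone and ComBat-seq, and 0 to 1 when libraries were left out. In Ang OE against CC 6 tRFs were called, 5 under TMM and DESeq2's own size factors, and 4 to 6 when libraries were left out. In CD against Ctrl 8 were called, 6 under TMM and DESeq2's own size factors, 9 with genome-matched reads, and 8 to 8 when libraries were left out. Without a library the lone sample of a TM4 group is assumed to vary like the others. Isoacceptor totals of CD against Ctrl gave 3 calls under TMM (34 of all 50) against 0 without it (32 of all 50), and no other alternative was run for totals.

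TMM moved the median log2 fold change of all tRFs from 0.44 to -0.08 in HFD against CD, from 0.43 to -0.05 in CC against Ctrl, from -0.38 to 0.03 in Ang OE against CC and from 1.17 to -0.12 in CD against Ctrl. In HFD against CD it turned tRF5 to -0.073, -0.093 and -0.13 (AGC, CGC, TGC), tRF3 to -0.31, -0.41 and -0.39, other reads to -0.082, -0.15 and -0.14, and totals to -0.17, -0.22 and -0.21. DESeq2's own size factors turned tRF5 of TGC to -0.0024, tRF3 to -0.22, -0.32 and -0.30, and other reads of CGC and TGC to -0.041 and -0.030 there, and all clean reads as library size turned tRF3 of CGC and TGC to -0.047 and -0.027. Without HFD replicate 1 the 3 tRF3 were at -0.27, -0.27 and -0.29, and without HFD replicate 2 at 0.39, 0.31 and 0.33, and the tRF5 share ranged from -4.54 to 10.6 percentage points (HFD minus CD) when libraries were left out. tRF5 of CGC in CC against Ctrl was -0.43 (TMM), -0.35 (DESeq2, own size factors), -0.0067 (all clean reads) and -0.15 (without Ctrl replicate 2), and tRF5 of TGC 0.16 (without Ctrl replicate 1) and 0.01 (without CC replicate 2), with a lowest value of -0.18 when libraries were left out. In Ang OE against Ctrl, tRF5 of CGC was 0.057 without Ctrl replicate 1 and 0.0008 without Ang OE replicate 1, and tRF5 of TGC 0.045 without Ctrl replicate 1, with lowest values of -0.27 and -0.29 when libraries were left out. In Ang OE against CC, tRF5 of AGC was -0.036 without CC replicate 1 and 0.17 without CC replicate 2, and tRF5 of CGC and TGC were 0.29 and 0.29 under TMM and 0.29 and 0.30 under DESeq2's size factors. In CD against Ctrl, 3′-end reads fitted apart from CCA ends were 2.01, 1.39 and 1.29, and other reads of TGC were -0.37 (TMM) and -0.074 (DESeq2, own size factors). The cause of these turns was not tested.

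CD and HFD libraries of the same number deviated together with r of -0.02, 0.21 and 0.18 over 136 tRFs, so they share only a number. In TM4, r was 0.769 for Ctrl and CC, -0.223 for Ctrl and Ang OE, and -0.275 for CC and Ang OE. With 2 libraries per group, the deviations within a group mirror each other. These values therefore cannot tell whether the TM4 numbers pair the samples. With the replicate block, 28 rather than 23 of all tRFs were called in HFD against CD, 2 rather than 1 in CC against Ctrl, 18 rather than 14 in Ang OE against Ctrl and 55 as before in Ang OE against CC. With the Ang OE numbers crossed, an alternative chosen after seeing the data, the counts were 28 and 61, of which 0 and 6 were tRNA-Ala tRFs.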

Other observations

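Mitochondrial tRNA-Ala, which is encoded by the mitochondrial genome and serves mitochondrial translation, was counted apart from the cytosolic family. It stood at 19.3 ± 3.13 RPM in CD and 26.8 ± 9.65 RPM in HFD (mean ± SD, n = 3 each, exact permutation p = 0.3), and at 1.31 to 2.88 RPM in the 6 TM4 libraries. Precursor tRNA-Ala had 0 reads in each of the 12 libraries.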
